A study of Homo sapiens with 12 samples.

Results

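The proteasome-named genes form a set of 47 genes, out of 58671 gene rows in the authors' table, taken as every symbol that begins with PSM, goes on with a letter from A to G and a number, and may end in IP. The rule leaves out PSMB8 and PSMB9. Of the 47, 41 reached 1 FPKM (a read level scaled to transcript length and sequencing depth) in at least 1 group, and all 41 did so in every group. By their known roles all but one encode proteasome subunits, activators, an inhibitor or assembly chaperones; PSMC3IP, a recombination factor named for binding PSMC3, is no part of the proteasome.

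RNA was measured in A549, an epithelial cell line from a human lung carcinoma. RLKO cells lack RNase L, the endoribonuclease that is switched on by 2-5A and cuts single-stranded RNA, and were compared with the parental line (WT). RLKO poly(I:C), RLKO untreated, WT poly(I:C) and WT untreated were the groups, 3 samples each, where poly(I:C) is a synthetic double-stranded RNA transfected at 500 ng/ml and left for 6 h. The table also lists ERCC spike-in RNA, and the sources used here do not say if RLKO is a single clone. Each group has 1 pooled value in the table, so levels come without replicate spread and depth is unknown. The tests are the authors' own, made within each genotype, and comparisons between genotypes carry none.

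The A549 markers KRT8, KRT18, AKR1B10, AKR1C1, ALDH1A1 and ALDH3A1 were between 180.1 and 3446 FPKM in every group, but CDH1 reached only 4.52 FPKM and EPCAM 1.03 FPKM. Markers of leukocytes, endothelium, fibroblasts and erythroid cells (PTPRC, PECAM1, COL3A1 and HBB) were at 0.414 FPKM or less. The spike-in factor was 1.13 times higher in treated than in untreated RLKO cells and 1.53 times higher in treated than in untreated WT cells. Unless said otherwise, a log2 change is poly(I:C) over untreated after division by these factors and with a pseudocount of 1. The median over 12181 protein-coding genes was -0.24 in RLKO and -0.70 in WT on that scale, and -0.096 and -0.17 in FPKM as deposited. In bulk RNA, fewer cells of a type and less RNA per cell cannot be told apart.

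The proteasome is the main protease of cytosol and nucleus for proteins tagged with ubiquitin. Its core particle is a barrel of stacked rings, in which outer alpha rings (PSMA genes) gate the entry and inner beta rings (PSMB genes) hold the proteolytic sites. A regulatory particle caps the barrel, with a ring of ATPases (PSMC genes) that unfolds the substrate and non-ATPase subunits (PSMD genes) that bind and remove ubiquitin. Interferon is known to exchange the catalytic beta subunits for the inducible PSMB8, PSMB9 and PSMB10 and to raise the activator made of PSME1 and PSME2, which favours peptides for MHC class I presentation.

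Poly(I:C) lowered some core particle and assembly chaperone transcripts in WT cells, and no member passed the authors' test in RLKO cells. In WT, 6 of the 41 members fell and none rose at a q-value under 0.05 in the authors' deposited table, against 3.09% of all protein-coding genes that fell and 4.27% that rose. The 6 were the alpha subunits PSMA4, PSMA5 and PSMA7, the beta subunit PSMB4 and the assembly chaperones PSMD10 and PSMG1. In RLKO the authors' test (Cuffdiff) called none, where 0.0246% of protein-coding genes fell and 0.821% rose. At an unadjusted p under 0.05 in the authors' deposited table, 1 member (PSMD10) was lower in treated RLKO cells (1.86% of protein-coding genes) and 22 in treated WT cells (12.1%). None was higher at that p, where 2.21% of protein-coding genes were in RLKO and 9.02% in WT.

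The 41 members, of which the test called 6 in WT, all had a log2 change below 0 in both genotypes on the spike-in scale, as did 9760 of 12181 protein-coding genes in RLKO and 9548 in WT. The members had a median of -0.71 (range -1.59 to -0.09) in RLKO and -2.06 (range -3.63 to -0.63) in WT. In FPKM as deposited the numbers below 0 were 37 in RLKO and 41 in WT, and with factors from the median ratio over protein-coding genes they were 32 and 40. The median member kept 61.0% of its untreated level in RLKO and 23.8% in WT, where the median protein-coding gene kept 81.4% and 56.6%. The share kept was under that of the median protein-coding gene in 32 of 41 members in RLKO and 40 of 41 in WT, PSME4 being the exception in WT.

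**Figure D1:**
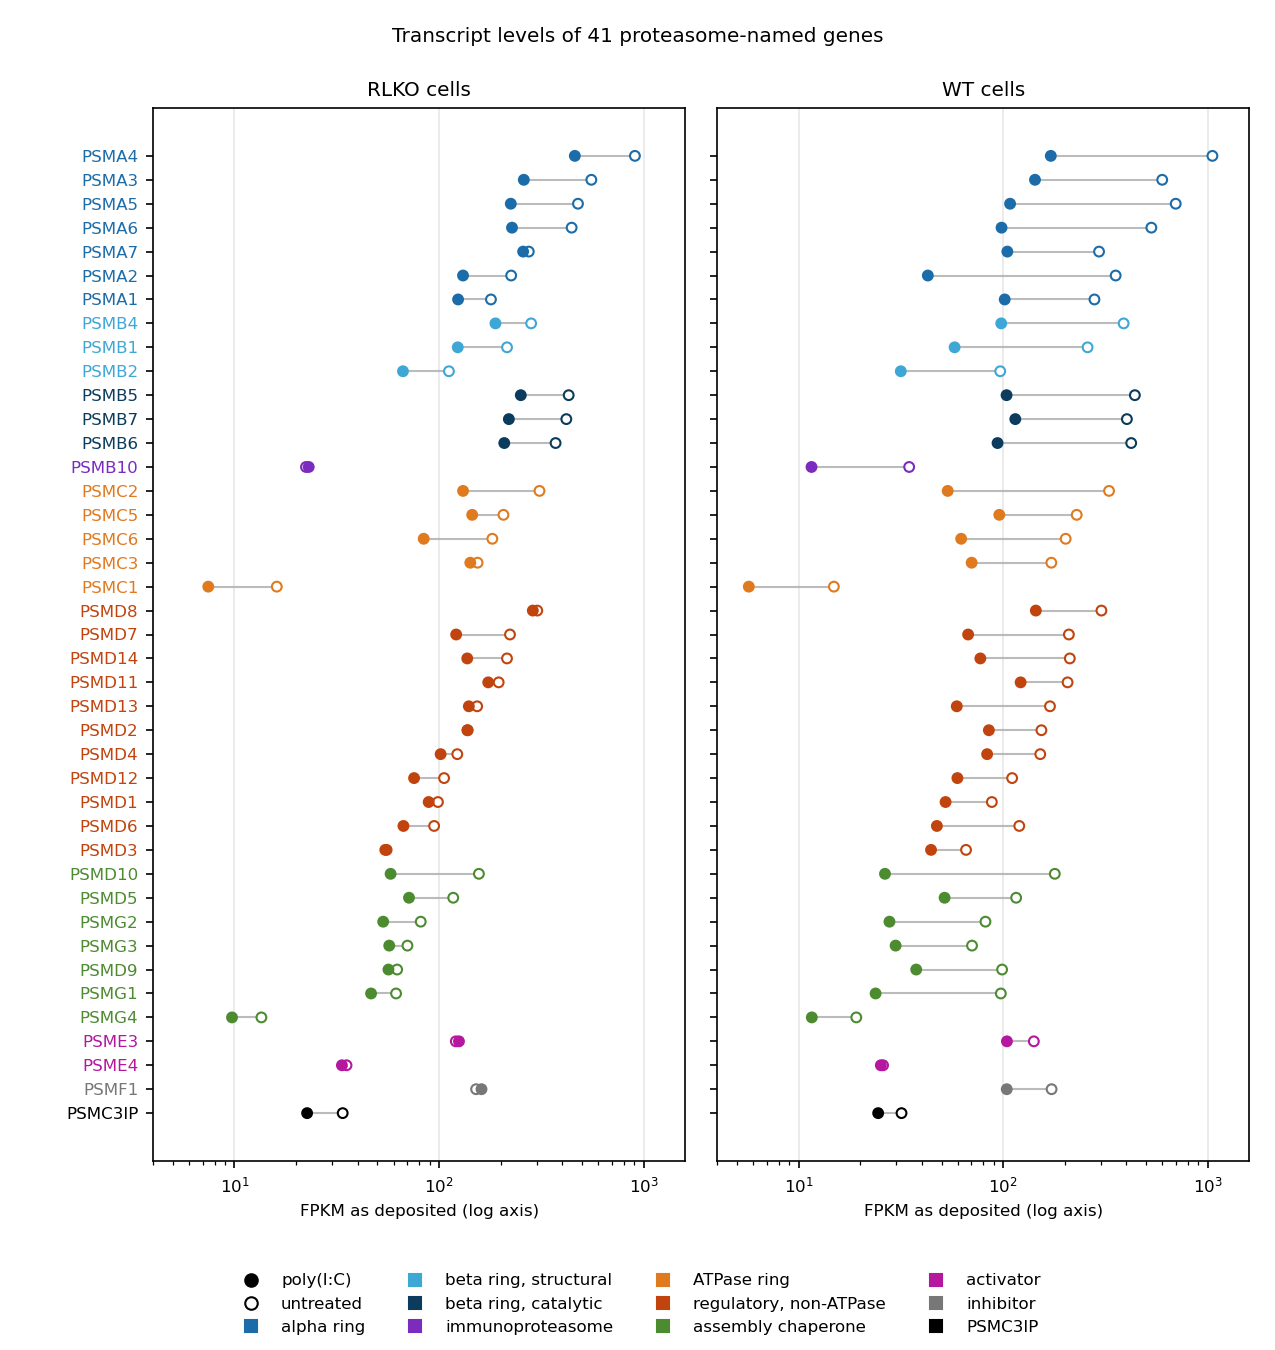
FPKM as deposited (log axis) of the 41 members that passed the filter, in RLKO (left) and WT (right); filled circles are the poly(I:C) group and open circles the untreated group, coloured by role, each circle 1 pooled group value without an error. The longest line is that of PSMA2 in WT cells, at 42.8 FPKM in treated and 355 FPKM in untreated cells. Next is the chaperone PSMD10 in WT cells, at 26.4 and 179 FPKM.

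The alpha ring was the most abundant class and had the lowest median change of the classes with 3 or more members in WT. PSMA4 (chromosome 15, 78540405 to 78552419, GRCh38) had 462 FPKM in treated and 908 FPKM in untreated RLKO cells, and 171 FPKM in treated and 1054 FPKM in untreated WT cells. It was the most abundant member in each group, and in treated WT cells it kept 10.6% of its untreated level on the spike-in scale, against 44.9% in RLKO. Its log2 change was -1.15 in RLKO and -3.23 in WT, with q = 0.0214 for WT in the authors' deposited table.

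PSMA5 had 224 and 478 FPKM in treated and untreated RLKO cells, and 108 and 697 FPKM in treated and untreated WT cells (log2 -1.27 and -3.29). It fell in WT with q = 0.0344 in the authors' deposited table. PSMA7 stood apart within the ring in RLKO, with 258 FPKM in treated and 275 FPKM in untreated cells. In WT it had 105 FPKM in treated and 294 FPKM in untreated cells, and it fell there (log2 -2.09, q = 0.0386 in the authors' deposited table). PSMA7 kept 82.9% of its level in RLKO, the highest share among the core subunits, and 23.3% in WT. Its RLKO change of -0.27 turned to 0.04 with median-ratio factors.

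PSMA2 had the lowest change of all members in WT without passing the test. It stood at 131 FPKM in treated and 225 FPKM in untreated RLKO cells, and at 42.8 FPKM in treated and 355 FPKM in untreated WT cells. The log2 change was -0.95 in RLKO and -3.63 in WT, where q was 0.234 in the authors' deposited table. The difference of the responses, WT minus RLKO, was -2.67 and the lowest of the 41. PSMA6, at a log2 change of -1.14 in RLKO and -3.03 in WT, lay just past the threshold (q = 0.0560 in the authors' deposited table), and PSMA3 and PSMA1 (WT q = 0.221 and 0.194 in the authors' deposited table) had -2.67 and -2.06 in WT.

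The catalytic subunits had similar values to each other. PSMB5, which carries the chymotrypsin-like site, had 251 and 431 FPKM in treated and untreated RLKO cells, and 104 and 440 FPKM in treated and untreated WT cells. PSMB6, with the caspase-like site, had 209 and 372 FPKM in treated and untreated RLKO cells, and 93.9 and 422 FPKM in treated and untreated WT cells. PSMB7, with the trypsin-like site, had 220 and 419 FPKM in treated and untreated RLKO cells, and 115 and 402 FPKM in treated and untreated WT cells. Their log2 changes ran from -1.11 to -0.95 in RLKO and from -2.77 to -2.41 in WT, and none passed in WT (q = 0.0560, 0.0737 and 0.0951 for PSMB5, PSMB6 and PSMB7 in the authors' deposited table).

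Of the structural beta subunits, PSMB4 fell in WT. It had 189 FPKM in treated and 282 FPKM in untreated RLKO cells, and 97.8 FPKM in treated and 388 FPKM in untreated WT cells (log2 -0.75 and -2.59, WT q = 0.0481 in the authors' deposited table). PSMB1 had nearly the same sizes, -0.97 in RLKO and -2.75 in WT, with a WT q of 0.0516 in the authors' deposited table, so the side of the threshold does not order these subunits by size. PSMB2 was the least abundant core subunit in every group, between 31.6 and 112 FPKM, and had log2 changes of -0.91 and -2.19.

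Across the 13 constitutive core subunits measured, the median log2 change was -0.97 (SD across subunits 0.27) in RLKO and -2.68 (SD 0.48) in WT. They kept a median of 50.7% in RLKO and 15.4% in WT. The levels of the core subunits were also closer to each other after treatment in WT. The highest was 6.92 times the lowest in treated and 8.11 times in untreated RLKO cells, and 5.41 times in treated and 10.9 times in untreated WT cells.

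PSMB10, the inducible counterpart of PSMB7, was the only member of the immunoproteasome with values. It had 23.1 FPKM in treated and 22.4 FPKM in untreated RLKO cells, and 11.6 FPKM in treated and 34.7 FPKM in untreated WT cells. The log2 change was -0.13 in RLKO, where it turned positive in FPKM as deposited and with median-ratio factors, and -2.09 in WT; neither passed (q = 1.00 and 0.406 in the authors' deposited table). PSMB10 amounted to 10.5% of PSMB7 in treated and 5.34% in untreated RLKO cells, and to 10.1% in treated and 8.62% in untreated WT cells.

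PSMB3, PSMC4, PSME1 and PSME2 were listed at 0 in all 4 groups, as were PSMB8 and PSMB9, which the rule leaves out. PSMB3 is a constitutive subunit of the core particle and PSMC4 of the regulatory particle. A listing of 0 is therefore not read as an absent transcript, and no change is given for them. The genes beside them on the chromosome were often listed in the same way. Of the 10 nearest protein-coding genes, 6 were at 0 in all groups for PSMB3 (chromosome 17), 5 for PSMC4 (chromosome 19, among them FBL, the nucleolar fibrillarin) and 9 each for PSME1 and PSME2 (chromosome 14, among them IRF9 and RNF31). For PSMB8 and PSMB9 on chromosome 6 the numbers were 10 and 9, TAP1 and TAP2 among them. Of 19894 protein-coding rows 11.3% were at 0 in all groups. The interferon-linked activator and all but one inducible catalytic subunit therefore could not be followed in these data. The tissue-restricted PSMA8 and PSMB11, known from testis and thymus, stayed at 0.0715 FPKM or less.

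Of the members in the regulatory particle none passed the test. The 16 ATPase and non-ATPase subunits measured, which do not include the lid subunit SEM1 described with the pathway, had a median log2 change of -0.55 in RLKO and -1.83 in WT, and none was called in either genotype; none was lower at an unadjusted p under 0.05 in RLKO and 6 were in WT in the authors' deposited table, where 1.86% of protein-coding genes were in RLKO and 12.1% in WT. The core medians were -0.97 in RLKO and -2.68 in WT. The ATPase ring, 5 genes without PSMC4, had a median of -1.18 in RLKO, below that of the core, and -1.89 in WT, above it. That RLKO median is the value of PSMC1, whose level is uncertain beside its copy PSMC1P1. Summed with that copy, PSMC1 had -1.29 in RLKO and -2.64 in WT, so the medians of the ring are uncertain too. Among the 11 non-ATPase subunits the median was -0.35 in RLKO and -1.48 in WT, and 9 of the 11 had a WT change above that of every core subunit. The difference between core and regulatory particle was not tested, since each gene has 1 value per group.

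The large base subunits PSMD1 and PSMD2 kept 79.6% and 88.6% in RLKO and 38.8% and 36.2% in WT. PSMD14, the deubiquitinase of the lid, had 137 and 215 FPKM in treated and untreated RLKO cells, and 77.3 and 212 FPKM in treated and untreated WT cells (log2 -0.82 and -2.05). The ubiquitin receptor PSMD4 had 102 and 123 FPKM in treated and untreated RLKO cells, and 83.5 and 152 FPKM in treated and untreated WT cells (log2 -0.44 and -1.46). The lid subunits PSMD7, at -2.23, and PSMD3, at -1.16, marked the ends of the non-ATPase range in WT.

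The ATPase ring spanned a wider range in WT, from -3.21 to -1.79. PSMC2 had 131 FPKM in treated and 310.0 FPKM in untreated RLKO cells, and 53.6 FPKM in treated and 329 FPKM in untreated WT cells. Its log2 changes of -1.41 and -3.21 were like those of the alpha ring, and its WT q was 0.184 in the authors' deposited table. PSMC6 had 84.2 and 182 FPKM in treated and untreated RLKO cells, and 62.3 and 202 FPKM in treated and untreated WT cells (log2 -1.28 and -2.29). PSMC3 and PSMC5 had -0.29 and -0.68 in RLKO and -1.89 and -1.86 in WT. PSMC1 stood at 7.45 FPKM in treated and 16.1 FPKM in untreated RLKO cells, and at 5.71 FPKM in treated and 14.9 FPKM in untreated WT cells, far under its partners in the ring.

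Pseudogenes bear on that low level. PSMC1P1, a processed copy of PSMC1, had 61.0 and 134 FPKM in treated and untreated RLKO cells, and 27.5 and 124 FPKM in treated and untreated WT cells. PSMC1 made up between 10.7% and 17.2% of the sum of the pair, and the sum had a log2 change of -1.29 in RLKO and -2.64 in WT, against -1.18 and -1.79 for PSMC1 alone. Reads of such copies can be shared, so the levels of PSMC1 and PSMC1P1 are uncertain. PSMA6P1 likewise had 48.2 FPKM in treated and 286 FPKM in untreated WT cells, beside 98.2 and 530.1 FPKM for PSMA6. Of 32 pseudogene rows of members 14 passed the filter, and PSMA2P2, PSMA2P3, PSMA6P1, PSMC1P9 and PSMD7P1 fell in WT in the authors' deposited table. That is 5 of 14, where 3.35% of all 22087 rows fell. Of the 6 called members only PSMD10 has pseudogene rows past the filter, and PSMD10P1 had 2.64 FPKM in treated and 4.34 FPKM in untreated RLKO cells. In WT it ran the other way from PSMD10, with 11.9 FPKM in treated and 2.51 FPKM in untreated cells (log2 1.38, not called), beside 26.4 and 179 FPKM for PSMD10. PSMD10P2, its other copy past the filter, ran the same way as PSMD10 in WT, with 0.282 FPKM in treated and 1.14 FPKM in untreated cells. If reads of PSMD10 and its copies are shared, the values of PSMD10 are uncertain too. PSMA3, PSMD6 and PSMG3 have antisense genes named for them in GENCODE, and the sources used here do not say if counting used the strand.

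Among the members outside the core, the lowest change belonged to an assembly chaperone in each genotype. PSMD10 (gankyrin, chromosome X, 108084207 to 108091618), a chaperone of the ATPase ring, had 58.0 FPKM in treated and 157 FPKM in untreated RLKO cells, and 26.4 FPKM in treated and 179 FPKM in untreated WT cells. The log2 change of -1.59 was the lowest of all members in RLKO, where the unadjusted p was 0.0146 and q = 0.801 in the authors' deposited table. In WT it was -3.31 with q = 0.0103 in the authors' deposited table, the lowest q of the set. PSMG1, a chaperone of the alpha ring, had 46.6 and 61.7 FPKM in treated and untreated RLKO cells, and 23.8 and 97.4 FPKM in treated and untreated WT cells. It fell in WT (log2 -2.59, q = 0.0241 in the authors' deposited table), and its change in RLKO was -0.57. PSMG2, PSMG3, PSMD5 and PSMD9 lay between -0.89 and -0.31 in RLKO and between -2.13 and -1.75 in WT, and PSMG4 had -0.60 and -1.25.

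Among the activators and the inhibitor, PSMF1 and PSME3 had the changes nearest to 0 of all members in RLKO, followed by PSMB10. PSME3, the nuclear activator, had 125 FPKM in treated and 121 FPKM in untreated RLKO cells, and 104 and 141 FPKM in treated and untreated WT cells. PSME4, a large activator linked to acetylated histones, had 33.5 and 35.3 FPKM in treated and untreated RLKO cells, and 25.2 and 25.9 FPKM in treated and untreated WT cells. PSMF1, which inhibits the core particle in vitro, had 161 and 152 FPKM in treated and untreated RLKO cells, and 104 and 172 FPKM in treated and untreated WT cells. Their log2 changes in that order were -0.13, -0.25 and -0.09 in RLKO and -1.04, -0.63 and -1.33 in WT. All 3 turned positive in RLKO with median-ratio factors, as did PSME4 in WT (0.17). PSMC3IP, the recombination factor, had 22.7 and 33.8 FPKM in treated and untreated RLKO cells, and 24.5 and 31.8 FPKM in treated and untreated WT cells (log2 -0.73 and -0.96). Its difference of responses, -0.23 as WT minus RLKO, was the smallest in size of the 41.

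**Figure D2:**
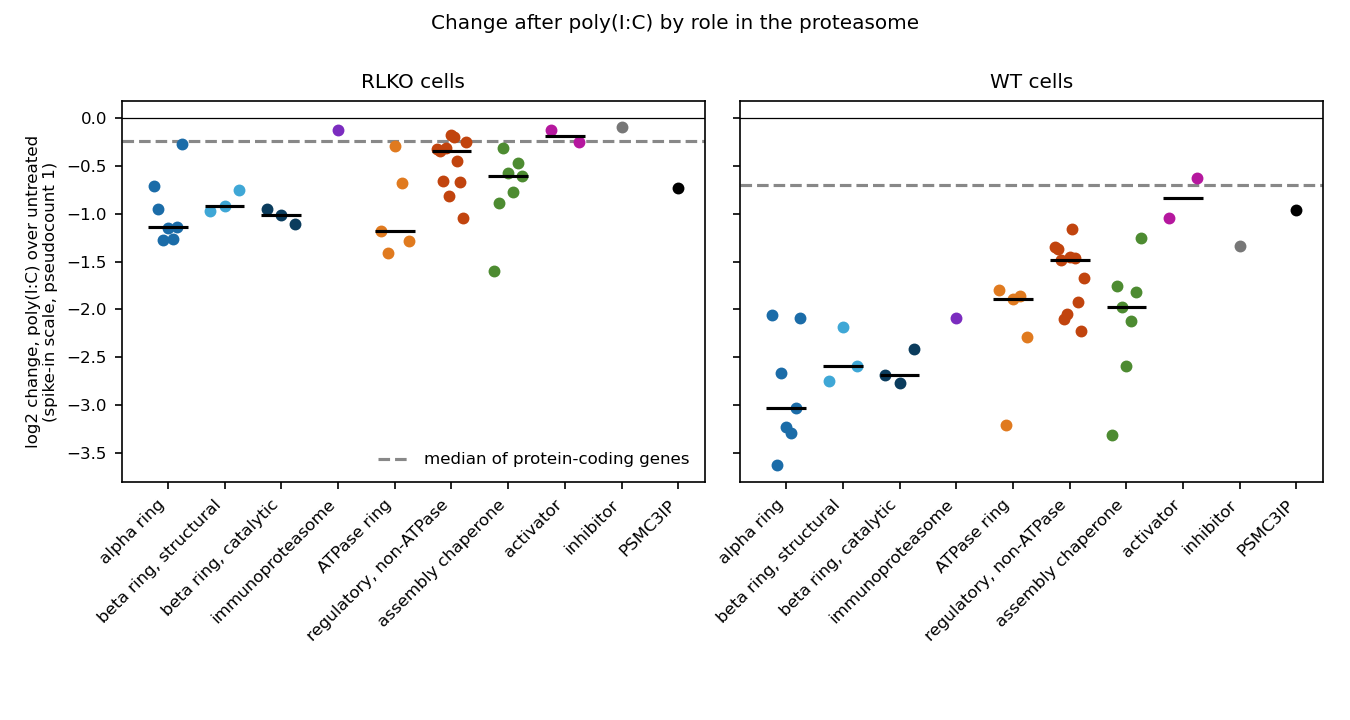
Each member by role, with its log2 ratio of poly(I:C) over untreated on the vertical axis (spike-in scale, pseudocount 1), RLKO left and WT right; black bars are medians of classes with more than 1 member and dashed lines the median of protein-coding genes, -0.24 in RLKO and -0.70 in WT. The alpha ring median was -1.14 in RLKO and -3.03 in WT, and the non-ATPase median -0.35 and -1.48.

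Between the genotypes, every member had the lower change in WT. The difference of the log2 changes, WT minus RLKO, had a median of -1.35 over the 41 members (range -2.67 to -0.23) and -0.47 over protein-coding genes. By class the median difference was -1.89 in the alpha ring, -1.75 over the beta subunits, -1.18 in both the ATPase ring and the non-ATPase subunits, and -1.35 in the chaperones. The log2 changes of the 41 members in RLKO and WT had Pearson r = 0.73 and Spearman rho = 0.73, across genes that share their libraries and a level on which both depend. None of these differences has a test.

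Untreated WT cells had slightly more of these transcripts than untreated RLKO cells, and treated WT cells had less than treated RLKO cells. The untreated difference, WT minus RLKO on the spike-in scale, had a median of 0.44 (range -0.15 to 0.94), above 0 in 40 of 41 members, where the protein-coding median was 0.24. In FPKM as deposited that median was 0.15. After treatment the difference had a median of -0.997 (range -1.73 to 0.10), with 40 of 41 members lower in WT, PSMG4 being the exception, and the protein-coding median was -0.25.

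**Figure D3:**
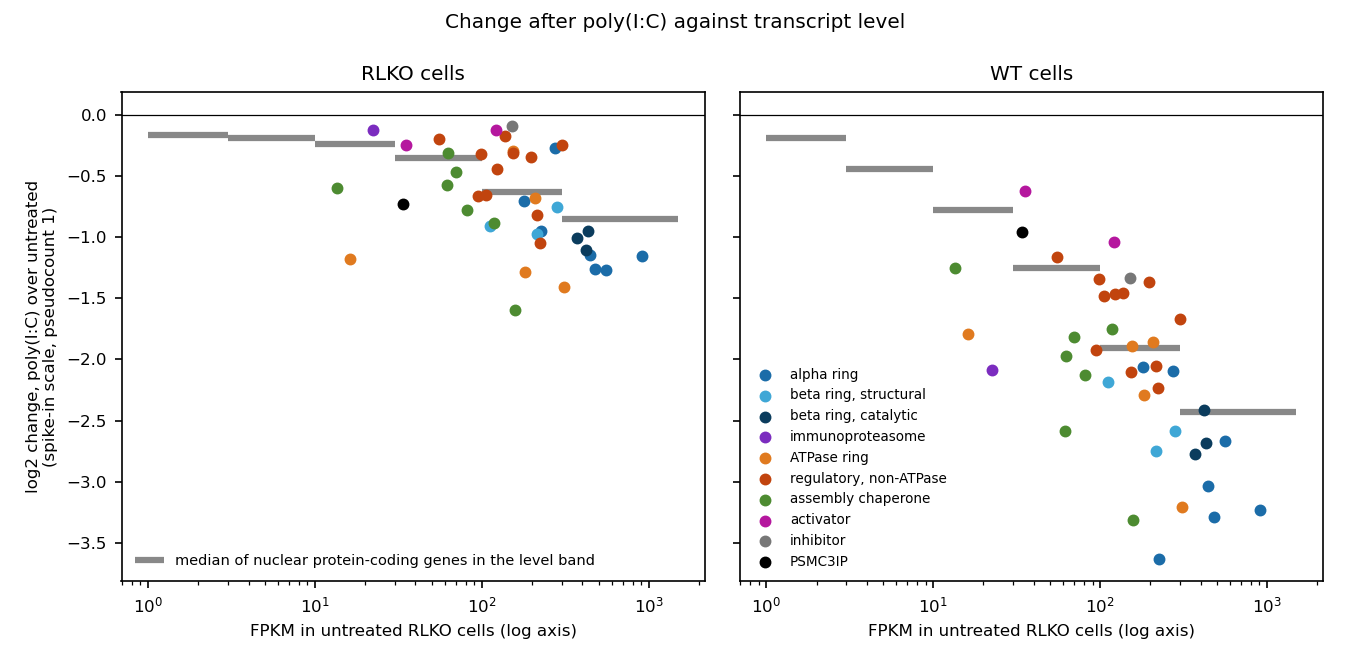
Each member by its log2 ratio of poly(I:C) over untreated (vertical axis, spike-in scale, pseudocount 1) and its FPKM in untreated RLKO cells (log axis), RLKO left and WT right; grey bars are medians of nuclear protein-coding genes in bands of level, the last band being open to the right. Members at 300 FPKM or more had a median of -1.14 in RLKO and -2.77 in WT, where the band medians were -0.85 and -2.43.

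The members are abundant, and abundance went with the size of the change in all genes. In bands of level in untreated RLKO cells, 9 members at 300 FPKM or more had a median of -1.14 in RLKO and -2.77 in WT, against -0.85 and -2.43 over all 381 nuclear protein-coding genes of the band. The 20 members at 100 to 300 FPKM had -0.69 and -2.05, against -0.63 and -1.90 over 837 genes. In these bands 2 of 9 and 3 of 20 members fell in WT, where 13.9% and 14.3% of all genes of the band did, so the share of called members was near that of equally abundant genes. The members lay below the median of their band in 27 of 41 cases in RLKO and in 27 of 41 in WT.

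The core lay mostly below its band medians, and the regulatory particle lay on both sides of them. Of the 13 core subunits 12 were below the band median in each genotype, PSMA7 being the exception in RLKO and PSMB7 in WT. Of the 16 regulatory particle subunits 8 were below it in each genotype. These were 4 of 5 ATPase and 4 of 11 non-ATPase subunits in RLKO, and 3 of 5 and 5 of 11 in WT. The assembly chaperones lay on the side of the core, with 6 of 7 below the band median in each genotype. Within the band of 100 to 300 FPKM alone, 6 core subunits had a median of -0.83 in RLKO and -2.39 in WT, and 10 regulatory subunits had -0.55 and -1.87. Relative to its band median PSMB10 stood at -1.31 in WT and at 0.11 in RLKO on the log2 scale, whereas PSME3 lay 0.86 above its band median in WT. The band of PSMB10, 10 to 30 FPKM, was set by its RLKO level and had a WT median of -0.78. In untreated WT cells PSMB10 had 34.7 FPKM, and the WT median of the 30 to 100 FPKM band was -1.25. PSMB10 was not called in WT. The median core subunit had 1.74 times the FPKM of the median regulatory subunit in treated and 2.41 times in untreated RLKO cells, and 1.57 times in treated and 2.36 times in untreated WT cells.

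Features that the choice of genes did not use were compared next. The half-life that the authors took from another study, whose unit the header does not give, had a median of 12.4 over 38 members and 4.0 over 9527 protein-coding genes. It was 23.2 in the core, 12.3 in the regulatory particle and 7.35 in the chaperones, while PSMB10 had 3.03 and PSMC3IP 3.17. The highest value in the table, 24, was given to 18.4% of members and 7.13% of protein-coding genes. Across the 38 members the half-life had Pearson r = -0.14 with the log2 change in RLKO and -0.43 with that in WT, and across protein-coding genes -0.21 and -0.44. The level in untreated RLKO cells had r = -0.41 and -0.61 across members.

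RNase L is known to cut after UA and UU dinucleotides, so their density was counted in the principal GENCODE transcript of each member. The median was 118 per kilobase over the members and 112 over protein-coding genes, with PSMA5 at 187 and PSMB10 at 45.2. Across the 41 members the density had Pearson r = -0.57 (rho = -0.55) with the log2 change in RLKO cells and r = -0.39 with that in WT cells. With the difference of responses, WT minus RLKO, it had r = -0.09 (rho = -0.09). Within the particles, r with the difference of responses was -0.33 over the 13 core subunits and 0.16 over the 16 regulatory subunits. Across 12093 protein-coding genes r was -0.08 with the change in RLKO, -0.14 with that in WT and -0.14 with the difference. Whether cuts at these dinucleotides had a part in any of the changes was not tested. GC content as deposited had, in the same order, r = 0.51, 0.26 and -0.04 across the members.

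**Figure D4:**
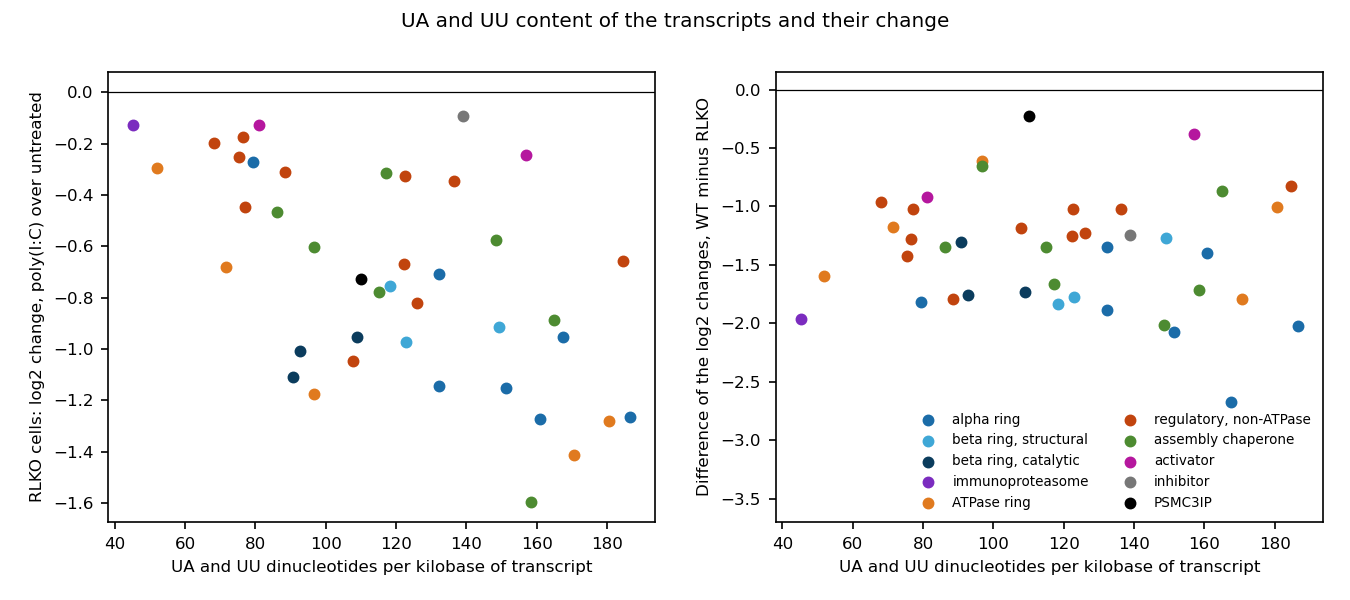
UA and UU dinucleotides per kilobase of the principal transcript (horizontal axis) of the 41 members, against the log2 change in RLKO cells (left) and against the difference of the log2 changes, WT minus RLKO (right), coloured by role. On the left the points slope downwards (r = -0.57), and on the right they show little slope (r = -0.09).

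The promoters of 3 members are shown as examples, and a part of the promoter in the changes was not tested. They are PSMA4, the most abundant and called lower in WT, PSMB10, the inducible subunit that was not called, and PSMD10, with the lowest q. The sequences are RefSeq's (GRCh38.p14), 250 bases before to 50 after the start of the gene in that source. They are PSMA4 at chr15:78540155-78540454 on the + strand, PSMB10 at chr16:67936801-67937100 on the - strand and PSMD10 at chrX:108091493-108091792 on the - strand. They are read 5′ to 3′ on the strand of the gene, and capitals mark the core of the interferon-stimulated response element in PSMA4 and PSMB10 and the CCAAT box, on the opposite strand, in PSMD10.
PSMA4: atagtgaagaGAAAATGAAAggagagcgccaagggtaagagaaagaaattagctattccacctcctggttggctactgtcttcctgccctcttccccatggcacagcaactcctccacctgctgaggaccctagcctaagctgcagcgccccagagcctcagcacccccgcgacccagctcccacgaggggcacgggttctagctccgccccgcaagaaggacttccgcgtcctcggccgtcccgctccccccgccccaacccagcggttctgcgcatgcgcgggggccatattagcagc
PSMB10: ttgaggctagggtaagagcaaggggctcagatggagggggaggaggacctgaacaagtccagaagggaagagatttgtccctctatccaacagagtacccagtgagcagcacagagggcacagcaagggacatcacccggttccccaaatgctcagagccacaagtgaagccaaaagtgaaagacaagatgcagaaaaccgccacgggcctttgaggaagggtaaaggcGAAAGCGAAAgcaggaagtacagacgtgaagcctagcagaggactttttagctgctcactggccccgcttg
PSMD10: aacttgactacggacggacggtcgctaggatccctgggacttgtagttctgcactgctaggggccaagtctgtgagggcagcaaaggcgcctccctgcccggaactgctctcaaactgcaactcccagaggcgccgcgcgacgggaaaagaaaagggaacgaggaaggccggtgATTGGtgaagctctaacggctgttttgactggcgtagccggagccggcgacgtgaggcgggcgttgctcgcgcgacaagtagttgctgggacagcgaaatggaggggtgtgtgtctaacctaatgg

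The motifs were searched on both strands in 41 member promoters found in the table, those of PSMA7, PSMB1, PSMB6, PSMB7, PSMD4 and PSMG3 not being among them. The core of the interferon-stimulated response element (ISRE), GAAA on each side of any pair of bases, was in 6 of 41 (14.6%), namely PSMA4, PSMB4, PSMB10, PSME1, PSME2 and PSMG4, and in 3.65% of all 27305 promoters. The antioxidant response element core, TGANNNNGC, to which NFE2L1 and NFE2L2 bind, was in 58.5% against 42.1%, CCAAT in 46.3% against 35.7%, and the gamma-activated site core, TTCNNNGAA, in 12.2% against 7.88%. Of the members that hold the ISRE core and had values, none rose in either genotype, and PSMA4 and PSMB4 fell in WT. These are matches of letters and not sites. In GENCODE, PSMB10 starts at position 67937087 and PSMD10 at 108091618, upstream of the starts used for these sequences. The ISRE match of PSMB10 therefore lies inside the gene as GENCODE places it. The CCAAT match of PSMD10 begins at the GENCODE start of that gene, so it does not lie upstream of it.

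A list of 43 symbols for ubiquitin, its activation and the partners of the proteasome matched 40 rows, of which 39 passed the filter. In WT 2 of the 39 fell and 1 rose, where 3.09% of protein-coding genes fell and 4.27% rose, so both counts were near the background. None was called in RLKO by Cuffdiff, where 2 were lower and 1 was higher at an unadjusted p under 0.05 (1.86% and 2.21% of protein-coding genes). The median log2 change was -0.30 in RLKO and -1.06 in WT. SEM1, a small subunit of the lid, had 306 and 992 FPKM in treated and untreated RLKO cells, and 177 and 1130 FPKM in treated and untreated WT cells. It fell in WT (log2 -3.28) with q = 0.0323 in the authors' deposited table. RPS27A, which encodes ubiquitin fused to a ribosomal protein, fell in WT (log2 -3.24, q = 0.0161 in the authors' deposited table) and had -1.12 in RLKO.

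MAFF, a small partner of NFE2L1 and NFE2L2 at the antioxidant response element, was the gene that rose. It had 8.67 and 2.39 FPKM in treated and untreated RLKO cells, and 27.8 and 2.11 FPKM in treated and untreated WT cells (log2 1.36 and 2.70), with q = 0.0513 in RLKO and 0.00180 in WT in the authors' deposited table. MAFK had the next highest change, 0.03 in RLKO and 0.68 in WT. NFE2L1, which raises proteasome genes when the proteasome is inhibited, had 63.8 and 70.6 FPKM in treated and untreated RLKO cells, and 71.0 and 60.5 FPKM in treated and untreated WT cells, without passing in either. POMP, the maturation factor of the core particle, had -1.31 in RLKO and -3.16 in WT, close to the alpha ring, also without passing.

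Of the 4 sets of complex genes compared, the 41 members as a whole had the median nearest to 0 in both genotypes, in RLKO by little. The 41 also include chaperones, activators, an inhibitor and PSMC3IP. The 13 core subunits alone had -0.97 in RLKO and -2.68 in WT, lower than each of the other sets, and the 16 regulatory subunits -0.55 and -1.83. The median log2 change was -0.71 in RLKO and -2.06 in WT over the 41 members, -0.78 and -2.36 over 9 genes of the COP9 signalosome, which is related to the proteasome lid, -0.72 and -2.22 over 75 mitochondrial ribosomal protein genes, and -0.89 and -2.59 over 34 genes of respiratory complex I. In WT 3 of 9, 15 of 75 and 11 of 34 genes of these sets fell, against 6 of 41 members, and 3.09% of all protein-coding genes did. The sets were not matched for level, with which the change goes. In untreated RLKO cells the median was 372 FPKM over the core and 154 FPKM over the 41 members. It was 119 FPKM over the COP9 signalosome genes, 88.8 FPKM over the mitochondrial ribosomal protein genes and 144 FPKM over complex I. No test of the differences between the sets was made.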

How the data were processed

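Total RNA of 12 A549 samples in 4 groups of 3 was sequenced with standard Illumina libraries, per the labels. Per the submitters' processing notes the tools were Cuffdiff 2.2.1, Bowtie2 2.0.2, TopHat2 2.0.6, Trimmomatic 0.32 and FastQC, on GRCh38.p12; settings are not stated there. The table gives 1 FPKM value per group, pooled by the authors, with p-values and q-values of their own tests per the file headers, so depth is unknown. GC content in percent, transcript lengths and the half-life were used as deposited. Only p-values that measure the spread between a group's 3 samples stand behind the calls, and the sources used here do not say if these were separate cultures, so that spread may be technical.

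Rows with a status of HIDATA and ERCC rows were left out, and rows with at least 1 FPKM in a group were kept (22087, of which 12181 were protein-coding by GENCODE 29). Scaling factors came from 49 ERCC rows (mean of 1 FPKM or more, above 0 in each group): the factor of a group is the median of its ratios to the geometric mean over groups. Log2 changes took a pseudocount of 1, so those of low genes are understated. The share kept took none. Calls used the authors' q-value under 0.05, and that test did not use the spike-in scale. UA and UU were counted in the principal protein-coding transcript.

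The members and lists were chosen with earlier results of these data known. Members described in full were those called, the catalytic and interferon-linked ones, PSMC3IP and the 3 lowest and 3 highest changes in each genotype and in their difference; others are given by class, with some values. Other complexes, pseudogenes, neighbouring genes and dinucleotides were added after values were seen. Alternatives were other scalings, pseudocount, filters, call rules and member lists. The script was tested on simulated data. Python 3.11.15 was used. Some results are not reported here.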

Additional observations from a re-analysis of the deposited data

How the results depend on the processing

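Values are given for members in RLKO first and in WT second where a pair stands. Under FPKM as deposited the median log2 change was -0.53 in RLKO and -1.45 in WT, the median difference of responses (WT minus RLKO) -0.92, the untreated difference (WT minus RLKO) 0.15 and the pathway median -0.13 and -0.45. With median-ratio factors over protein-coding genes these were -0.40 and -1.24, -0.84, 0.17, and -0.0044 and -0.24. These settings differ from the main scale only in 1 factor per group. With no filter, which adds 6 members at or near 0, the WT median was -1.93, and the protein-coding median moved to -0.066 in RLKO and -0.10 in WT (main -0.24 and -0.70); a filter of 5 FPKM gave -0.28 and -0.89. Calls in WT numbered 12 at q under 0.1 and 22 at an unadjusted p under 0.05; in RLKO 1 passed at the unadjusted p. For the pathway list an unadjusted p gave 2 lower and 1 higher in RLKO and 5 lower and 2 higher in WT, and q under 0.1 gave 1 higher in RLKO. Other uses of the ERCC rows, the authors' constants, a pseudocount of 0.1, a filter of 5 FPKM and lists without PSMC3IP or, chosen after seeing the data, without members that have pseudogene rows left the medians of members and pathway genes within 0.1 and the WT calls at 5 or 6. No called member changed sign in WT; PSMA7 did in RLKO with median-ratio factors. No paired analysis was possible because the table gives 1 value per group, and for the same reason no replicate could be left out.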
